A study of Mus musculus with 12 samples.

Results

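Thymic stromal lymphopoietin (Tslp) is a cytokine made mainly by epithelial cells, and its receptor pairs the chain Crlf2 with Il7r, the alpha chain that is shared with the interleukin-7 receptor. The ligand and both chains were looked up on exon arrays of mouse mammary tumours by taking every probeset that the platform annotation gives to Tslp, Crlf2 or Il7r alone. The rule found 18 of 228090 probesets, of which 8 were for Tslp and 10 for Il7r. It found 0 for Crlf2, whose level was not analysed here, so the receptor is described by its shared chain and not by the chain that is particular to TSLP. Tslp had been singled out for its levels in these same arrays, so its levels are given as a description with no test. Il7r was taken as a receptor chain and was tested.

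Primary tumours of mammary carcinoma cell lines were measured on 12 arrays, with 3 arrays from 67NR, 3 from 168FARN, 3 from 4T07 and 3 from 4T1. The lines stem from 1 mouse mammary tumour and are known to spread to different extents: 67NR does not leave the primary site, 168FARN reaches lymph nodes, 4T07 reaches the lung without visible nodules, and 4T1 forms metastases. Cultured cells of each line were placed in the fourth mammary fat pad of BALB/c females that were 3 months old, with no other treatment named in the labels, and 8, 11, 15 and 13 mice were injected with 67NR, 168FARN, 4T07 and 4T1. Tumours were removed once a group's average size was 1 to 2 cm. Each group is therefore 1 transplanted line in immunocompetent hosts, and the RNA holds host cells as well as tumour cells. With 1 line for each way of spreading, a line and its behaviour cannot be told apart. Nothing in the labels says that each array came from its own animal, so p-values measure the spread between these arrays, which may be technical. In such bulk tissue, more cells of a type and more RNA per cell cannot be told apart.

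TSLP binds Crlf2 with low affinity, and Il7r joins to form the high-affinity complex, which signals through the kinases Jak1 and Jak2 to Stat5. Interleukin-7 uses the same Il7r chain together with Il2rg, the common gamma chain, and the kinases Jak1 and Jak3. In barrier tissues TSLP is released with other alarmins and acts on dendritic cells, basophils, innate lymphoid cells and T cells to promote type 2 responses. Il7r is best known on T cells, on their precursors and on innate lymphoid cells.

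The level of a gene is the median log2 signal of its probesets on an array, and array numbers are the replicate numbers of the labels. As a scale for background, 95% of the olfactory receptor genes, which mammary tissue is not known to use, had mean levels under 5.08, and the same limit for single probesets was 5.98. The medians of the 12 arrays over all probesets lay between 7.21 and 7.57. Skeletal muscle markers varied among the 168FARN arrays (mean level of 10 markers from 5.53 to 9.25), while they stayed between 5.30 and 6.30 on the arrays of the other lines. The array with the low value was 168FARN array 1, and the named 168FARN differences that were lost, or moved by over 1.5 times, with that array as the only one of its line are given with that value too.

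Tslp, the ligand, was present in 4T07 and 4T1 tumours and in the range of the background in 67NR and 168FARN tumours. Its level was 10.85, 11.32 and 10.23 on the 3 arrays of 4T07 and 7.43, 7.64 and 7.62 on those of 4T1. It was 3.05, 3.08 and 2.83 on the arrays of 67NR and 3.38, 3.48 and 2.70 on those of 168FARN. All 4T07 arrays were above all 4T1 arrays, and all 4T1 arrays were above the background limit. The levels of 67NR and 168FARN overlapped, and both lines lay below the limit on every array.

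The means put 4T07 first (10.80 ± 0.55, SD, n = 3), then 4T1 (7.56 ± 0.12, SD, n = 3), then 168FARN (3.18 ± 0.42, SD, n = 3) and 67NR (2.99 ± 0.13, SD, n = 3). The last pair in that order differed by 0.19, less than the spread between the 168FARN arrays. Between 4T07 and 4T1, where the gene was measured on both sides, the gene level was 9.46-fold higher in 4T07, a difference of 3.24 on the log2 scale. The single probesets had a smaller median difference, -2.54 for 4T1 minus 4T07, in a range from -5.88 to -0.48. Both ends of that range are from probesets that were not above the probeset limit in 4T1. Against either low line only a bound can be given, because the low side is background: taking the limit of 5.08 as the low level, Tslp was at least 52.9-fold higher in 4T07 and at least 5.59-fold higher in 4T1. On the log2 scale these bounds are 5.72 and 2.48. They were 4.74 and 1.87 with the mean of the probesets in place of the median, and 4.02 and 1.08 when probesets under the 25th percentile of signal were left out, which also raises the background limit.

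**Figure D1:**
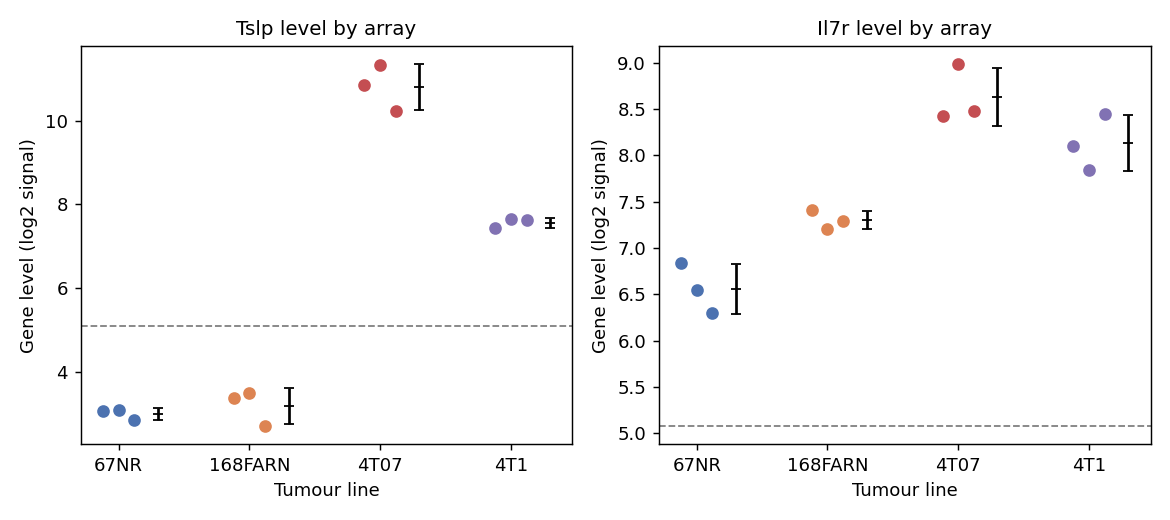
Gene level (log2 signal) of Tslp and Il7r on each array of the 4 tumour lines. Points are arrays in the order of their replicate numbers, the bar beside them is the mean ± SD (n = 3), and the dashed line is the background limit of 5.08. Tslp lies below that line in 67NR and 168FARN and highest in 4T07 (10.80); Il7r rises from 6.56 in 67NR to 8.63 in 4T07.

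In 67NR and 168FARN every Tslp probeset had a mean under the probeset limit of 5.98. In 4T07, 7 of the 8 were above it, and in 4T1, 6 of the 8. Taking 5.98 as the low level, the 7 probesets were at least 4.07-fold to at least 36.7-fold higher in 4T07 than in 67NR, with a median bound of 29.3-fold. The 6 were at least 1.71-fold to at least 6.38-fold higher in 4T1, with a median bound of 3.76-fold.

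The other 2 probesets were not above the limit in 4T1. Probeset 5179800 was above it in 4T07 (8.01 ± 0.30, SD, n = 3) and under it in 4T1 (2.13 ± 0.62, SD, n = 3), 67NR (1.51) and 168FARN (2.10). Probeset 5303548 stayed under the limit in all 4 lines, with 5.63 ± 0.86 in 4T07 and 5.15 ± 0.70 in 4T1 (SD, n = 3). At the brightest probeset, 4439482, the means were 10.91 in 4T07 and 8.71 in 4T1. A dim probeset that nears background understates a level, and which exon each probeset covers was not analysed here.

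**Figure D2:**
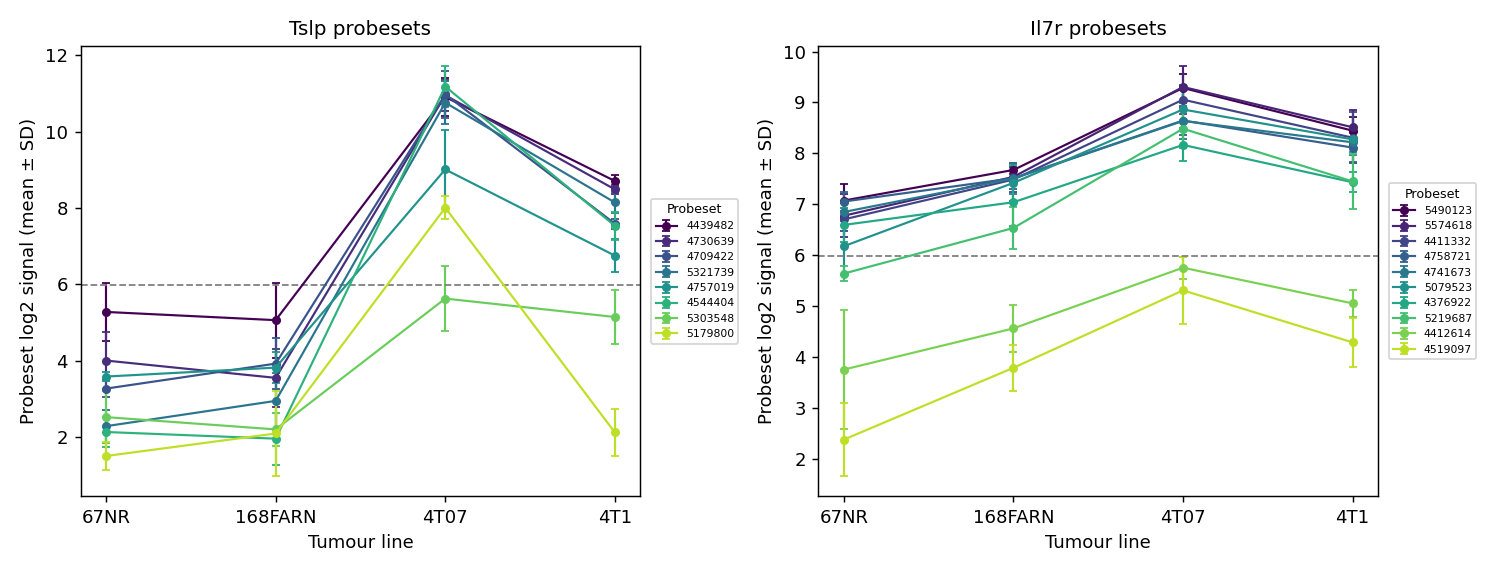
Log2 signal of each Tslp probeset (left, 8) and each Il7r probeset (right, 10) in the 4 lines, as mean ± SD of 3 arrays, joined by lines for each probeset. The dashed line is the probeset background limit of 5.98. Probeset 5179800 of Tslp is at 8.01 in 4T07 and 2.13 in 4T1, while all 10 Il7r probesets are higher in 4T07 than in 67NR, by 1.57 to 2.93.

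Il7r, the receptor chain shared with interleukin-7, differed among the lines (limma F-test, adjusted p = 1.65e-05, with 42.0% of all genes called) and was above the background limit on every array. Its level was 8.42, 8.99 and 8.48 on the 4T07 arrays and 8.10, 7.85 and 8.45 on the 4T1 arrays. It was 7.41, 7.21 and 7.30 on the 168FARN arrays and 6.84, 6.54 and 6.30 on the 67NR arrays. The ranges of 4T07 and 4T1 overlapped slightly, and no other pair of lines overlapped.

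Il7r was 4.20-fold higher in 4T07 than in 67NR (log2 difference 2.07, SE 0.20, limma adjusted p = 8.88e-06) and 2.97-fold higher in 4T1 than in 67NR (1.57, adjusted p = 8.73e-05). It was 2.51-fold higher in 4T07 than in 168FARN (adjusted p = 0.000335) and 1.78-fold higher in 4T1 than in 168FARN (adjusted p = 0.00705). In 168FARN it exceeded 67NR 1.68-fold (0.74, adjusted p = 0.0164). That rise was lost without 67NR array 3 (0.61, adjusted p = 0.0713) or without 168FARN array 1 (0.69, adjusted p = 0.0509). With 168FARN array 1 as the only array of its line, the differences from 67NR (0.85, adjusted p = 0.101) and of 4T1 from 168FARN (0.72, adjusted p = 0.14) did not pass. For comparison, the share of all 15025 genes called was 24.7% for 168FARN against 67NR, 23.7% for 4T07 and 22.3% for 4T1 against 67NR, and 28.3% for 4T07 and 31.2% for 4T1 against 168FARN.

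Between 4T1 and 4T07 the Il7r level differed by -0.50, with a 95% interval from -0.94 to -0.06 before adjustment, and did not pass the test (limma adjusted p = 0.295), where 2.38% of all genes were called. When the gene level was the mean of the probesets in place of their median, the difference was -0.74 and passed (adjusted p = 0.0204). Unlike Tslp, Il7r was above the background limit in 67NR and 168FARN as well.

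All 10 Il7r probesets were higher in 4T07 than in 67NR, by 1.57 to 2.93, and each passed the test over all 207232 probesets with 1 symbol, of which 6.75% were called higher. Against 67NR, 8 of the 10 rose in 4T1 (6.06% of all probesets higher) and 2 in 168FARN (7.83%). Against 168FARN, 9 rose in 4T07 (7.73%) and 3 in 4T1 (8.69%). All 10 were lower in 4T1 than in 4T07, by 0.42 to 1.03 in size, but limma called 0 of them after adjustment and 7 at an unadjusted p under 0.05, with 0.604% of all probesets called and 0.507% called lower. Probesets 4412614 and 4519097 stayed under the probeset limit in every line, and the other 8 were above it in each of 168FARN, 4T07 and 4T1.

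Whether Il7r probesets moved unequally was tested with limma's diffSplice, which sets each probeset against the others of its gene. Genes entered it by their mean level over all arrays, and Il7r (7.66) passed the limit of 7.39 only through 4T07 and 4T1, since its means in 67NR and 168FARN lay under it. Its 8 brighter probesets entered the test in 6 comparisons. Of these 48 values, 0 were called after adjustment (lowest adjusted p = 0.401) and 6 had an unadjusted p under 0.05, where of all probesets 1.16% were called for 168FARN, 0.943% for 4T07 and 1.03% for 4T1 against 67NR, 1.09% for 4T07 and 2.32% for 4T1 against 168FARN, and 0.196% between 4T1 and 4T07. Tslp did not enter this test, because its mean level over all arrays (6.13) was under that limit.

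The promoter of Il7r is shown because this chain rose across the lines and is the measured part of the receptor. The 300 bases are those of RefSeq, build GRCm38.p6, chr15:9529827-9530126, minus strand, from 250 bases before the start site to 50 after it. Capitals mark matches to 2 motifs searched on both strands: TTCNNNGAA, the spaced palindrome that STAT proteins bind, and CTTCCTG, a core that ETS family factors bind.
Il7r promoter: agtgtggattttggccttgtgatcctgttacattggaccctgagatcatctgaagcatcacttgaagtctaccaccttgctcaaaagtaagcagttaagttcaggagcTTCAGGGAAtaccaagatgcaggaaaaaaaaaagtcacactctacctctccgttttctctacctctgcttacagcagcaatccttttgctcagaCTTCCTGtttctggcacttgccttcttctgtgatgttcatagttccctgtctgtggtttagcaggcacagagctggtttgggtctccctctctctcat
The match TTCAGGGAA begins 142 bases before the start site, and 8.30% of the 32851 promoter windows of the same length in that table hold the STAT motif. The match CTTCCTG begins 48 bases before the start site, and 13.3% of the windows hold that motif. The 2 matches do not overlap, and no binding was measured here.

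Epithelial cells are the usual source of TSLP, and epithelial markers moved with Tslp in part. Of 16 epithelial markers, 15 were measured. Of these, 12 rose in 4T1 against 67NR (median change 1.98, where the median of all genes was -0.04) and 11 in 4T07 (median 1.71, all genes -0.04), while 9.38% and 11.0% of all genes were called higher. In 168FARN, 2 rose (13.3%, all genes 13.5%) and 1 fell (6.67%, all genes 11.2%). The mean level of the list was 7.45 to 8.71 on the 4T07 arrays, 8.04 to 8.40 on the 4T1 arrays, 6.33 to 6.41 on the 168FARN arrays and 5.58 to 6.20 on the 67NR arrays.

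The list means of 4T07 and 4T1 overlapped. Within 4T07, array 2 had the highest Tslp (11.32) and the lowest list mean (7.45). Array 3 had the lowest Tslp there (10.23) and the highest list mean (8.71). Within 4T1, array 1 was lowest in both (7.43 and 8.04). Krt18, a simple-epithelium keratin, was 11.67 in 4T07 and 12.40 in 4T1. Esrp1 and Ehf, epithelial regulators, were under the background limit in 67NR and 168FARN, and every measured epithelial marker had a line mean above it in 4T07 and 4T1. The part of epithelial content in the Tslp levels was not tested.

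**Figure D3:**
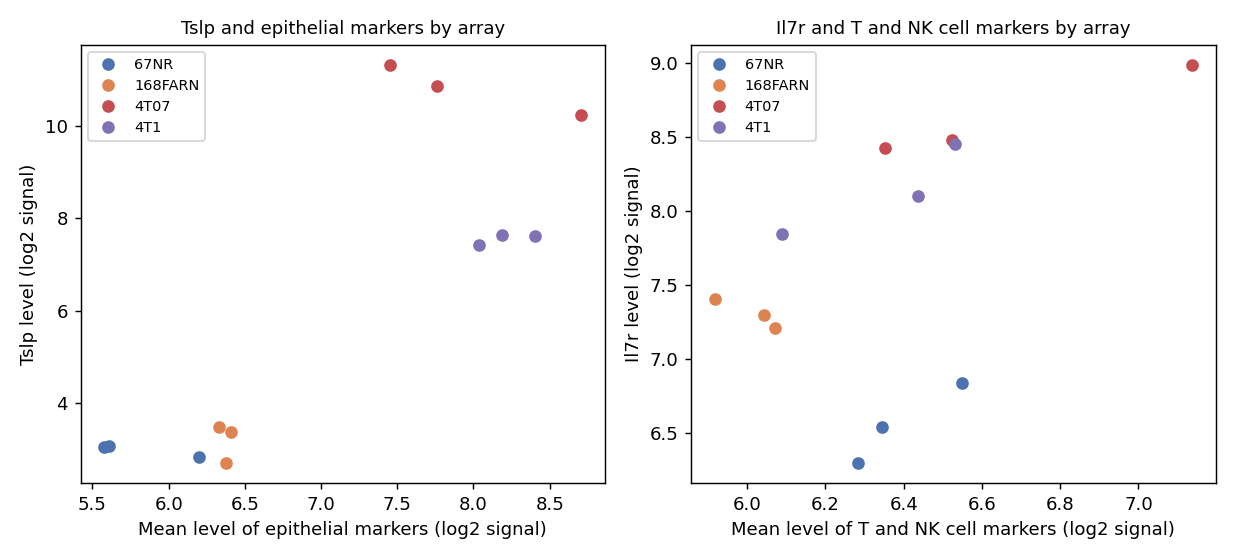
Left, Tslp level against the mean level of 15 epithelial markers; right, Il7r level against the mean level of 20 T and NK cell markers. Each point is 1 array, coloured by line, and both axes are log2 signals. In 4T07 Tslp lies at 10.23 to 11.32 and the epithelial mean at 7.45 to 8.71, and in 4T1 at 7.43 to 7.64 and 8.04 to 8.40. On the 168FARN arrays Il7r lies at 7.21 to 7.41 and the T and NK cell mean at 5.92 to 6.07.

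T cells are known to carry Il7r. Of 22 T and NK cell markers, 20 were measured, and their mean level was 6.28 to 6.55 on the 67NR arrays, 5.92 to 6.07 in 168FARN, 6.35 to 7.14 in 4T07 and 6.09 to 6.53 in 4T1. Against 67NR, 5 of the 20 rose in 4T07, where 11.0% of all genes did, and 2 fell (10.0%, all genes 12.7%). In 4T1, 2 rose (10.0%, all genes 9.38%) and 2 fell (10.0%, all genes 13.0%), shares close to those of all genes. In 168FARN, 4 fell (20.0%, all genes 11.2%), or 2 with 168FARN array 1 alone. The T cell receptor subunit Cd3e was 7.46 in 67NR, 6.65 in 168FARN, 8.02 in 4T07 and 7.57 in 4T1. Klrb1c was under the background limit in every line, and Cd3d in 168FARN. Within 4T07, array 2 had both the highest Il7r (8.99) and the highest list mean (7.14). Array 1 of 67NR (6.84 and 6.55) and array 3 of 4T1 (8.45 and 6.53) were also highest in both within their lines. In 168FARN the reverse was seen, with the highest Il7r (7.41) and the lowest list mean (5.92) on array 1.

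Of 8 markers of type 2 innate lymphoid cells, 6 were measured. Against 67NR, 3 of the 6 rose in 4T07 and 1 in 4T1 (16.7%), and 1 rose and 1 fell in 168FARN (16.7% each), with the shares of all genes as above. Of 15 dendritic cell markers, 14 were measured, and 6 rose in 4T07 (42.9%, all genes 11.0%), 2 rose in 4T1 (14.3%, all genes 9.38%) and 3 fell in 168FARN (21.4%, all genes 11.2%). The part of these cells in the Il7r levels was not tested.

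Il7 and Il2rg did not follow Tslp over the line means, since both were highest in 168FARN, where Tslp was in the background. Il7, the other ligand that uses Il7r, was highest in 168FARN, at 8.77, 9.38 and 8.63 on the 3 arrays, against 7.24, 6.79 and 7.27 in 67NR. It was 6.39, 6.86 and 6.96 in 4T07 and 6.28, 6.49 and 5.96 in 4T1. No 168FARN array overlapped any other line. The difference of 168FARN from 67NR was 1.83 (SE 0.23, limma adjusted p = 9.68e-05), and 4T07 fell by 2.19 and 4T1 fell by 2.68 against 168FARN (adjusted p = 1.66e-05 and 2.21e-06). Il7 was also lower in 4T1 than in 67NR (-0.86, adjusted p = 0.0175), a call lost without 67NR array 1 (0.0647), 67NR array 3 (0.0633) or 4T1 array 3 (0.0811).

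Il2rg, the common gamma chain that Il7 signalling needs and TSLP does not, was 10.00 ± 0.09 in 168FARN and 9.87 ± 0.25 in 4T07 against 9.22 ± 0.15 in 67NR and 9.13 ± 0.24 in 4T1 (SD, n = 3). Against 67NR it rose in 168FARN (0.78, limma adjusted p = 0.00436, and 0.0855 with 168FARN array 1 alone) and in 4T07 (0.64, adjusted p = 0.0137). The 4T07 call was lost without 67NR array 3 (0.0579) or 4T07 array 2 (0.0598). Il2rg was also lower in 4T1 than in 4T07 (-0.74, limma adjusted p = 0.0366), where 1.82% of all genes were called lower. That call was lost without any 1 of 7 arrays. The line with the most Il7 and a high Il2rg, 168FARN, was thus one of the lines in which Tslp was in the background.

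Genes around TSLP were described from 7 lists of 73 genes, of which 67 were measured. Some lists hold genes that signal for TSLP, respond to it or induce it. Il7 and Il2rg, other alarmins with their receptors and other genes of the common gamma chain family are counted too. The lists were chosen from textbook knowledge, but with earlier results of these data known, so the counts are a description. In 4T07 against 67NR, 23 rose (11.0% of all genes were called higher) and 7 fell (12.7% of all genes lower). In 4T1, 20 rose (9.38% of all genes) and 9 fell (13.0%). In 168FARN, 9 rose (13.5%) and 17 fell (11.2%), and 17 genes in all were called with 168FARN array 1 alone. Against 168FARN, 25 rose (11.4% of all genes) and 4 fell (16.8%) in 4T07, and 26 rose (11.9%) and 6 fell (19.3%) in 4T1. In the last pair, 4T1 against 4T07, 1 was higher in 4T1 (0.552% of all genes) and 2 were lower (1.82%), and 1 gene in all was called without 4T07 array 2 or without any single 4T1 array. The median changes were 0.13 in 4T07, 0.14 in 4T1 and -0.05 in 168FARN, where those of all genes were -0.04, -0.04 and 0.04. The 3 comparisons with 67NR share its arrays, and the shares of all genes given here are the background for each list that follows.

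Among 11 measured JAK and STAT genes, 3 rose and 3 fell in 4T07 (27.3% each, all genes 11.0% and 12.7%), 3 rose and 1 fell in 4T1 (27.3% and 9.09%, all genes 9.38% and 13.0%), and 4 fell in 168FARN (36.4%, all genes 11.2%), or 3 with 168FARN array 1 alone. Jak2, the kinase that works beside Crlf2, was 9.93 ± 0.60 in 4T07 and 10.32 ± 0.04 in 4T1 against 8.80 ± 0.15 in 67NR and 8.57 ± 0.26 in 168FARN (SD, n = 3). It rose against 67NR by 1.13 in 4T07 and 1.52 in 4T1 (limma adjusted p = 0.00423 and 0.000537). Jak3, the kinase of the common gamma chain, rose by 0.97 in 4T07 and 1.45 in 4T1 (adjusted p = 0.000217 and 7.36e-06). Jak1 and Stat5a, which all these receptors use, were added for their role after values had been seen. Jak1 fell in each of 168FARN (-0.79), 4T07 (-0.75) and 4T1 (-0.59). Stat5a changed by -0.15, -0.15 and 0.12 in those lines and passed in none of these 3 tests. Stat5b, of the same list and also added after values had been seen, fell in 168FARN (-0.92, limma adjusted p = 0.00051) and 4T07 (-0.50, 0.0247). It did not pass in 4T1 (-0.35, 0.108).

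Of 9 measured genes that STAT5 induces or that feed back on it, 4 rose in 4T07 (44.4%, all genes 11.0%), 3 rose and 1 fell in 4T1 (33.3% and 11.1%, all genes 9.38% and 13.0%), and 3 fell in 168FARN (33.3%, all genes 11.2%), a count that was the same with array 1 alone. Cish, a feedback inhibitor that was singled out after its values were seen, rose by 0.79 in 4T07 and 0.83 in 4T1 and fell in 168FARN (-0.82). The call in 4T07 was lost without 67NR array 2 (0.71, limma adjusted p = 0.059) or 4T07 array 2 (0.65, 0.0578), and that in 168FARN with the mean of probesets (-0.58, 0.0554). Against 168FARN it was higher by 1.62 in 4T07 and 1.65 in 4T1. Il2ra, the interleukin-2 receptor alpha chain, was under the background limit in 67NR (4.98). It was at least 1.95-fold higher in 4T07 and at least 1.70-fold higher in 4T1. These bounds were not tested, and the levels as measured passed (limma adjusted p = 0.00182 and 0.00691). Socs1, another feedback inhibitor, fell from 8.68 in 67NR to 7.68 in 168FARN and 7.71 in 4T1, and the kinase Pim1 fell in 168FARN (-1.04).

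Type 2 genes downstream of TSLP moved unevenly. Of 20 measured, 7 rose and 1 fell in both 4T07 and 4T1 (35.0% and 5.00%, with 11.0% and 12.7% of all genes in 4T07 and 9.38% and 13.0% in 4T1). In 168FARN, 4 rose and 4 fell (20.0% each, all genes 13.5% and 11.2%), or 3 and 2 with 168FARN array 1 alone. Arg1, the arginase of type 2 and of suppressive myeloid cells, was 11.24 ± 0.21 in 4T07 and 11.41 ± 0.10 in 4T1 against 8.75 ± 0.63 in 67NR (SD, n = 3), a rise of 2.49 and 2.66 (limma adjusted p = 0.000418 and 0.00026). Ccl11, the eosinophil chemokine eotaxin, rose by 1.51 in 4T07, 0.93 in 4T1 and 0.93 in 168FARN, where it was lost with array 1 alone (0.55, limma adjusted p = 0.217). Gata3, a factor of T helper 2 and of luminal epithelial cells, rose by 0.89 and 1.15 and fell in 168FARN (-1.32), and Il13ra1, a subunit of the interleukin-13 receptor, rose by 1.22 and 1.13 and by 0.69 in 168FARN. Cd40, which activates dendritic cells, rose by 1.15 in 4T07 and by 0.77 in 4T1 (limma adjusted p = 0.0205). The 4T1 call was lost without 67NR array 2 (0.0536), 67NR array 3 (0.0883) or 4T1 array 3 (0.0859).

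The type 2 cytokines that TSLP is known to evoke, added for their role after values had been seen, did not pass against 67NR. Il4 was at 3.96 to 4.52, Il5 at 3.65 to 3.97 and Il9 at 3.92 to 4.31 over the line means, all under the background limit, as was the ligand Tnfsf4 at 4.02 to 4.50. Il13 was at 5.53 to 5.68. The chemokine Ccl17, which TSLP induces in dendritic cells, was 6.11 in 67NR and 5.68 in 4T07, and did not pass in any of the 3 lines against 67NR. The chemokine Ccl22, of the same list, was higher in 4T1 than in 67NR (0.94, limma adjusted p = 0.0359). It did not pass in 4T07 (0.61) or 168FARN (0.26). Ccl24, another eosinophil chemokine, was higher in 4T1 (0.94) and lower in 168FARN (-1.94). Il13ra2, a decoy receptor, was at least 1.47-fold higher in 168FARN (5.63) than in 67NR, where it was under the limit (3.63), and on 168FARN array 1 it was under the limit too (4.57). The macrophage gene Chil3 was at least 1.25-fold higher in 4T07 (5.39) than in 67NR (3.47, under the limit). Its 4T07 arrays were at 4.58, 6.35 and 5.25, so array 1 was under the limit too. The costimulatory ligand Cd80 rose in 168FARN (1.05) and was lower in 4T07 (-0.65, limma adjusted p = 0.0448) and 4T1 (-0.79, adjusted p = 0.0182). The 4T07 call was lost without any 1 of 7 arrays (67NR arrays 1 and 2, 168FARN array 3, all of 4T07 and 4T1 array 1, adjusted p from 0.051 to 0.169), and the 4T1 call without 67NR array 1 or 2 or 4T1 array 1 or 2 (0.0608 to 0.0826).

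Il33, another epithelial and stromal alarmin, was highest in 168FARN and lowest in 4T1. Its level was 12.13, 11.71 and 11.34 on the 168FARN arrays and 10.06, 10.25 and 9.95 on the 67NR arrays, against 8.04, 8.39 and 7.88 in 4T07 and 7.63, 7.91 and 7.72 in 4T1. All arrays of the lines in which Tslp was in the background were above all arrays of the lines in which it was present. Against 67NR, Il33 changed by -1.99 in 4T07 and -2.33 in 4T1 (limma adjusted p = 1.13e-05 and 2.52e-06) and by 1.64 in 168FARN (7.21e-05). Fibroblast markers were also highest in 168FARN, where Il7 peaked too: the mean level of 10 markers was 10.49 to 10.70 there, against 8.90 to 9.34 in 67NR, 9.33 to 9.91 in 4T07 and 9.39 to 9.71 in 4T1. Of the 10, 7 rose in 168FARN against 67NR (70.0%, all genes 13.5%), or 5 with 168FARN array 1 alone, and 6 were lower in both 4T07 and 4T1 than in 168FARN. The part of fibroblasts in the Il33 and Il7 levels was not tested. Il1rap, a subunit of the receptors for Il33 and interleukin-1, fell in 4T07 (-0.84) and 4T1 (-1.41). Il25 changed by 0.07 in 168FARN, -0.08 in 4T07 and 0.05 in 4T1, and did not pass.

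Some genes known to induce TSLP, or to serve or block such inducers, rose in the lines that held it. Of 13 measured, 6 rose and 1 fell in 4T07 (46.2% and 7.69%, all genes 11.0% and 12.7%), and 6 rose in 4T1 (46.2%, all genes 9.38%). In 168FARN, 2 rose and 4 fell (15.4% and 30.8%, all genes 13.5% and 11.2%), or 2 fell with 168FARN array 1 alone. Il1a, an epithelial and myeloid cytokine, was 6.82, 6.98 and 7.37 on the 4T07 arrays and 7.32, 7.81 and 6.79 on the 4T1 arrays, against 6.10, 5.58 and 5.20 in 67NR and 3.26, 3.88 and 3.76 in 168FARN. It rose against 67NR by 1.43 in 4T07 and 1.68 in 4T1 (limma adjusted p = 0.00232 and 0.000744) and in 168FARN fell to the range of the background. Il1b rose by 1.66 and 1.47, and Il1rn, the antagonist of both, by 1.11 and 1.37. Il1rn was also higher in 168FARN (0.53, limma adjusted p = 0.0162), a call lost without 67NR array 1 (0.0748) or 168FARN array 2 (0.0516) and with 168FARN array 1 alone (0.14).

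F2rl1, a receptor that proteases activate on epithelial cells, was 7.16 ± 0.56 in 4T07 and 7.94 ± 0.18 in 4T1 against 4.79 ± 0.86 in 67NR and 5.34 ± 0.31 in 168FARN (SD, n = 3). Its 67NR mean is under the background limit, and the rise was at least 3.64-fold in 4T07 and at least 6.22-fold in 4T1. These bounds were not tested, and the levels as measured passed (limma adjusted p = 0.000375 and 3.69e-05). Vdr, the vitamin D receptor, fell in 168FARN (-1.13). None of Il1a, Il1b, Il1rn and F2rl1 passed between 4T1 and 4T07 (differences of 0.25, -0.19, 0.26 and 0.77). In that pair the gene level of Tslp was 9.46-fold apart, and the median difference of its probesets was -2.54. Neutrophil markers moved beside this group: 9 of 10 measured rose in 4T07 (90.0%, all genes 11.0%) and 6 in 4T1 (60.0%, all genes 9.38%) against 67NR, with mean levels of 8.43 to 8.76 and 7.70 to 7.94 against 5.86 to 6.91 in 67NR. Their part in these levels was not tested.

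Of 7 other genes of the common gamma chain family, 1 rose in 4T07 (14.3%, all genes 11.0%), 3 fell in 4T1 (42.9%, all genes 13.0%) and 2 fell in 168FARN (28.6%, all genes 11.2%), a count that was the same with array 1 alone. Il2rb, a subunit of the receptors for interleukins 2 and 15, fell in 168FARN (-0.99) and 4T1 (-1.01), and Il21r fell in 168FARN (-1.17). Il15 fell in 4T1 (-1.04, limma adjusted p = 0.0137), a call lost without 67NR array 1 (-0.93, 0.0562) or 4T1 array 3 (-0.85, 0.0675).

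**Figure D4:**
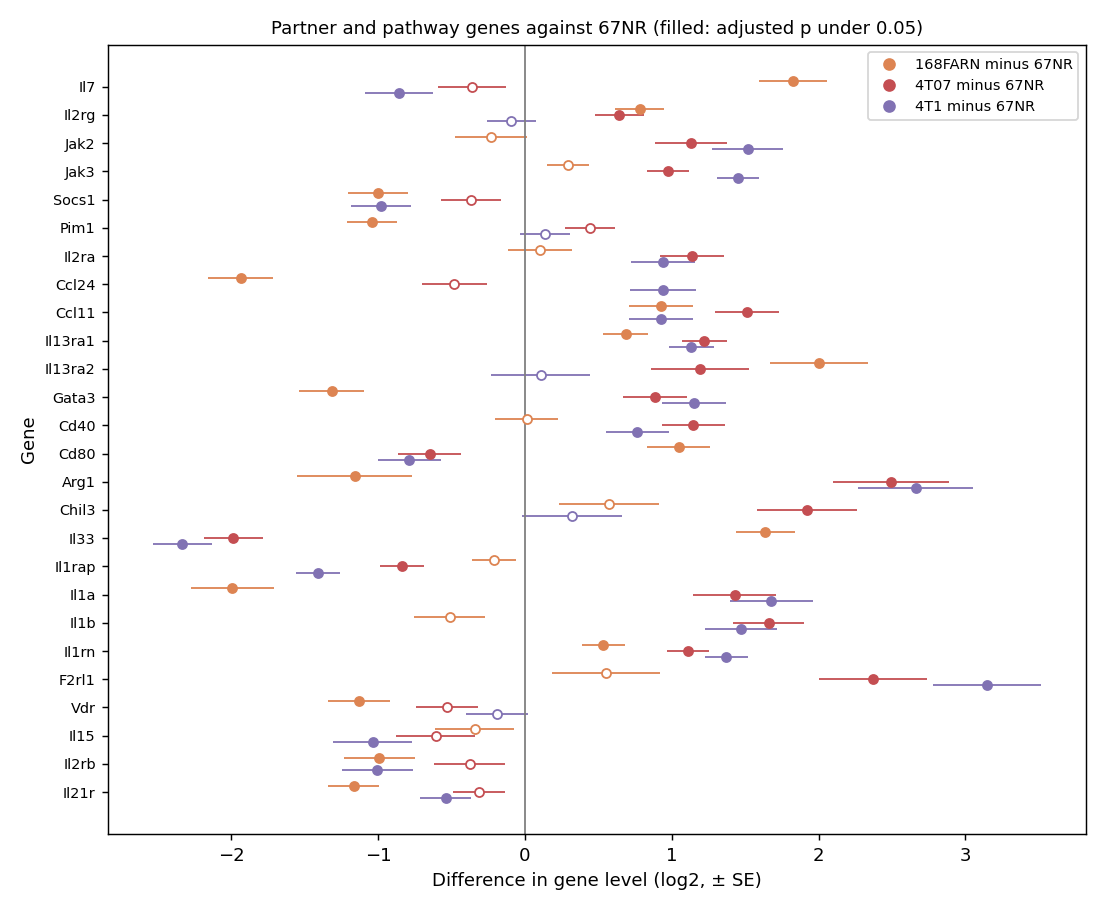
Difference in gene level against 67NR (log2, ± SE of the limma contrast) for Il7, Il2rg and the pathway genes that were called and at least 2-fold different in a line. Colours are the 3 lines, and filled points have an adjusted p under 0.05. Arg1, Il1a, Il1b and F2rl1 are to the right in 4T07 and 4T1, Il33 is to the left in both (-1.99 and -2.33), and Il7 is to the right in 168FARN (1.83).

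The genes next to Tslp on its chromosome were compared as well. In the RefSeq order the measured neighbours are Bin1 and Gypc on one side and Wdr36 and Camk4 on the other. Wdr36, a ribosome biogenesis protein, was 10.74, 10.70 and 11.20 on the 4T07 arrays and 11.04, 11.00 and 11.02 on the 4T1 arrays, against 9.64, 9.71 and 9.58 in 67NR and 9.81, 9.79 and 10.17 in 168FARN. It rose against 67NR by 1.23 in 4T07 and 1.37 in 4T1 (SE 0.16, limma adjusted p = 9.86e-05 and 3.95e-05) and did not pass in 168FARN (0.28, adjusted p = 0.245).

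Camk4, a calcium-dependent kinase of T cells and neurons, was 5.38, 6.47 and 6.52 in 4T07 and 6.19, 6.23 and 6.38 in 4T1, against 5.26, 4.87 and 4.98 in 67NR and 4.95, 4.76 and 5.35 in 168FARN. The means of 67NR and 168FARN were under the background limit, and 4T07 array 1 was close to 168FARN array 3. Camk4 was at least 1.97-fold higher in 4T07 and at least 2.19-fold higher in 4T1 than in 67NR. These bounds were not tested, and the levels as measured passed (limma adjusted p = 0.00941 and 0.00433). Neither Wdr36 nor Camk4 passed between 4T1 and 4T07 (0.14 and 0.15, adjusted p = 0.795 and 0.881). On the other side, Gypc, a red cell membrane glycoprotein, was lower than in 67NR in 168FARN (-2.52), 4T07 (-2.08) and 4T1 (-2.15). Bin1, a membrane-bending adaptor, was higher in 168FARN (0.57, limma adjusted p = 0.0106), did not pass in 4T07 (-0.22), and was lower in 4T1 (-0.43, adjusted p = 0.0461). The 168FARN call was lost without 67NR array 2 (0.0524) and with 168FARN array 1 alone (0.103), and the 4T1 call without any 1 of 8 arrays (all of 67NR and 4T1, 168FARN array 1 and 4T07 array 2, adjusted p from 0.0549 to 0.152).

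**Figure D5:**
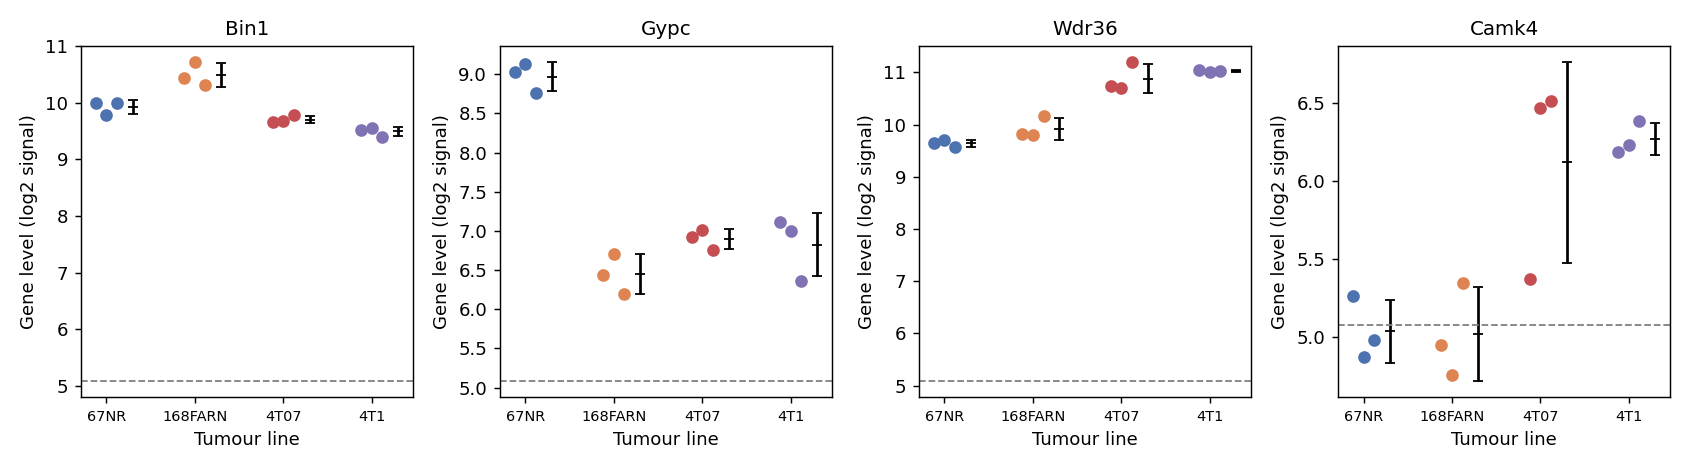
Gene level (log2 signal) on each array of the measured neighbours of Tslp, in chromosome order: Bin1 and Gypc before it, Wdr36 and Camk4 after it. Points are arrays, bars are mean ± SD (n = 3), axes differ between panels and the dashed line is the background limit of 5.08. Wdr36 and Camk4 are higher in 4T07 and 4T1 than in 67NR, and Gypc is lower in all 3 other lines than in 67NR.

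The genes whose levels tracked Tslp most closely were found by Pearson correlation over the 12 arrays, among 3243 genes whose line means spanned at least 1. The 12 points are 4 lines of 3 arrays, so the correlation mainly compares 4 line means and is a description only. The closest was Slc15a3, a lysosomal peptide transporter (r = 0.992), at 11.03 ± 0.13 in 4T07 and 10.10 ± 0.08 in 4T1 against 8.61 ± 0.17 in 67NR and 8.58 ± 0.23 in 168FARN (SD, n = 3). Next came Ccn2, a matricellular protein (r = 0.987), the ion channel Trpv4 (0.974), the stromelysin Mmp3 (0.971), the enolase Eno2 (0.969), Lsp1 (0.967), the potassium channel Kcnk5 (0.965), the EGF family ligand Epgn (0.965), the syndecan Sdc4 (0.964) and Parp14 (0.963). None of them spanned as wide a range of line means as Tslp: Ccn2 went from 8.15 in 168FARN to 11.44 in 4T07.

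Il7r stood at rank 91 of this order (r = 0.917). The genes most like Il7r itself were Kdelr3, a retrieval receptor of the secretory pathway (r = 0.978), the proteoglycan Agrn (0.964), the transglutaminase Tgm2 (0.959), Rgs1, a regulator of G protein signalling in lymphocytes (0.959), and Parp14 (0.957). Parp14, which takes part in interleukin-4 signalling through Stat6, was thus in both sets, at 9.33 in 168FARN, 10.60 in 4T07 and 10.11 in 4T1. Kdelr3 followed Il7r from 7.33 in 67NR and 8.04 in 168FARN to 9.67 in 4T07 and 9.12 in 4T1.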

How the data were processed

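The authors deposited a log2 signal for each probeset on each array. The log2 scale is inferred from the spread of the values, since summarization and normalization are not given in the sources used here, and nothing was renormalized. Of the columns, 12 were used and 0 left out. No read depth exists for arrays, and their number limits the precision. Of the probesets, 207232 had 1 symbol in the platform annotation, 3882 several and 16976 none. Of 16207 symbols, 2111 were updated through RefSeq names (GRCm38.p6). Gene levels were medians of probesets for 15025 genes with at least 3. Groups were compared with limma 3.58.1 (R 4.3.3), lmFit and eBayes on all 12 arrays with no covariate, and the fit was tested on simulated data. P-values were adjusted by Benjamini-Hochberg over all genes or probesets and called under 0.05. The planned test of Crlf2 had no probeset. Genes named were the members, pathway genes called and at least 2-fold different from 67NR, Il7, Il2rg, the nearest measured neighbours of Tslp and the genes most correlated with Tslp (10) and Il7r (5). The members and lists were chosen with earlier results of these data known. Alternatives covered normalization, centring, probeset summary, filters, variance model, a replicate block, the arrays left out and the lines fitted.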

Additional observations from a re-analysis of the deposited data

How the results depend on the processing

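Of 132 refits of the Il7r differences, 127 kept direction and side of the threshold. The exceptions were the rise in 168FARN without 67NR array 3 (0.613) or 168FARN array 1 (0.6932), and with 168FARN array 1 alone, chosen after seeing the data (0.8478); 4T1 against 168FARN with that array alone (0.7249); and 4T1 against 4T07 with the mean of the probesets, which passed (-0.7408). With array 1 alone, 168FARN takes its spread from the other lines. Leaving out single arrays gave Il7r differences from 67NR of 0.613 to 0.8845 in 168FARN, 1.892 to 2.21 in 4T07 and 1.414 to 1.716 in 4T1, from 168FARN of 1.147 to 1.429 in 4T07 and 0.6688 to 0.9711 in 4T1, and between 4T1 and 4T07 of -0.6569 to -0.3195.

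The log2 bounds on Tslp against 67NR, which are also those against 168FARN, moved with the probesets used: to 4.738 for 4T07 and 1.872 for 4T1 with the mean of the probesets, and to 4.023 and 1.078 without probesets under the 25th percentile. Single arrays left out gave 5.48 to 5.989 for 4T07 and 2.44 to 2.553 for 4T1 against either low line, and -3.527 to -2.981 for 4T1 against 4T07.

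With 168FARN array 1 alone, 17 pathway genes were called against 67NR in place of 26; the fit has fewer samples. Single arrays left out gave 22 to 27 in 168FARN, 22 to 31 in 4T07 and 21 to 29 in 4T1 against 67NR, 25 to 31 and 25 to 33 against 168FARN, and 1 to 4 between 4T1 and 4T07, with 3 in the full fit and 1 without 4T07 array 2 or any 1 of the 4T1 arrays. After quantile normalization 6 Il7r probesets in place of 3 were called between 4T1 and 168FARN; the cause was not tested. Of 135 calls of named genes, 21 were lost without at least 1 array, and 0 of the 1620 refits reversed.

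The replicate numbers were not taken as pairs: same-numbered arrays of different lines had deviations correlated between -0.086 and 0.191, over 0.1 in 3 of 18 pairs, and 2 of 12 arrays correlated best with their own number in every other line. With the replicate block, 3862 genes in place of 3710 were called for 168FARN against 67NR and 349 in place of 357 for 4T1 against 4T07, and the Il7r difference of 4T07 from 67NR was 2.07 (limma adjusted p = 7.48e-05). Levels under the background limit have no order, which limits Tslp in 67NR and 168FARN, and the median of all genes stayed within 0.1 of 0 under each scaling.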

Other observations

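Basophils and mast cells are also known to respond to TSLP or to carry genes of the type 2 response, and their markers moved both ways. Of 12 markers, 11 were measured, and against 67NR 2 rose and 7 fell in 4T07 (18.2% and 63.6%, where 11.0% and 12.7% of all genes did) and 1 rose and 6 fell in 4T1 (9.09% and 54.5%, all genes 9.38% and 13.0%). In 168FARN 2 fell (18.2%, all genes 11.2%). The mean level of the list was 6.33 to 6.89 on the 67NR arrays, 6.40 to 6.74 in 168FARN, 5.79 to 6.07 in 4T07 and 5.59 to 5.91 in 4T1. Cpa3, the mast cell carboxypeptidase, was 9.87 ± 0.67 in 67NR and 9.91 ± 0.47 in 168FARN against 6.39 ± 0.44 in 4T07 and 6.21 ± 0.21 in 4T1 (SD, n = 3), a change from 67NR of -3.48 in 4T07 and -3.66 in 4T1 (limma adjusted p = 6.24e-06 and 3.39e-06). Gata2, a factor that mast cells and basophils need, fell by 0.86 and 0.92 in the same lines. Mcpt8, a basophil protease, had means under the background limit in 67NR and 168FARN. It was at 6.05 ± 0.59 in 4T07 and 5.96 ± 0.20 in 4T1 (SD, n = 3), at least 1.96-fold and at least 1.84-fold higher than in 67NR. These bounds were not tested, and the levels as measured passed (limma adjusted p = 0.00344 and 0.00597). These genes were singled out after their values were seen.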
